A study of Mus musculus with 2 samples.

Results

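The 10 genes described here encode sensors of cytosolic and endosomal nucleic acids, together with the adaptors that several of them signal through. They were chosen by name, as the rows of the deposited matrices with the symbols Mb21d1, Tmem173, Zbp1, Ifi204, Ddx58, Ifih1, Dhx58, Mavs, Tlr7 and Tlr9. Earlier results of these data were known when they were chosen. All 10 were found among the 27998 genes listed, and 9 reached the mean of at least 1 CPM that was asked of a gene before it was counted as tested, as did 10714 genes in all. Tumor mononuclear phagocytes (TMPs) that were MerTk+ and CD64+ had been sorted from B16 melanomas of C57Bl/6 mice and profiled by droplet-based single-cell RNA sequencing. There was 1 library from Fcmr+/+ mice and 1 from Fcmr-/- mice, which lack the Fc receptor for IgM in every tissue and not only in phagocytes, and both genotypes carried the same tumor. The sources used here do not give the number of mice behind each library. With 1 library per genotype there is no spread between mice, no test between genotypes was possible and no p-value is given. Intervals are exact at 95% and cover counting error only.

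Cells detect nucleic acids that lie where they should not. In the cytosol, cGAS, the product of Mb21d1, binds double-stranded DNA and makes the second messenger cGAMP, which activates STING, the product of Tmem173, at the endoplasmic reticulum. RIG-I (Ddx58) and MDA5 (Ifih1) recognise viral or misplaced double-stranded RNA and signal through MAVS on the outer membrane of mitochondria, while LGP2 (Dhx58) binds RNA without signalling through MAVS by itself. ZBP1 binds nucleic acid in the Z conformation and engages RIPK3, and IFI204 belongs to the PYHIN family of DNA-binding proteins. In endosomes, TLR7 reads single-stranded RNA and TLR9 reads unmethylated CpG DNA. These routes end in the production of type I interferon, which in turn induces many of the sensors, so that phagocytes in an interferon-rich tumor can carry more of them. From this general knowledge Zbp1, Ifi204, Ddx58, Ifih1, Dhx58 and Mb21d1 were treated as interferon-inducible, and Tmem173, Mavs, Tlr7 and Tlr9 as the others. This is a working split and does not mean that interferon cannot induce the others. Tmem173 rose with the interferon score in the values below.

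The sequence around the start of a gene can hold the letters that interferon-activated factors read, and it was searched for them. RefSeq windows of GRCm38.p6, 250 bases before to 50 bases after the start, were used for 5 of the 10 genes (Mb21d1, Ddx58, Ifih1, Mavs and Tlr9). No window was searched for Zbp1, Ifi204, Dhx58, Tmem173 or Tlr7, so the motif counts do not cover these genes. That they were left out does not mean that they lack a RefSeq window. The windows were searched on both strands for the interferon-stimulated response element, spelled GAAA, any 2 bases, GAAA, and for the gamma-activated site, spelled TTC, any 3 bases, GAA. The first was found in the windows of Ddx58 and Ifih1 and not in those of Mb21d1, Mavs or Tlr9, against 3.44% of all 32851 windows. The second was found in none of the 5, against 8.30% of all windows. The windows of 2 RNA helicases and of their adaptor Mavs are shown, because the helicases followed the interferon score in the values below and Mavs did not. They run 5′ to 3′ along the gene, with the matching letters in capitals. Counted from 1 at the first transcribed base, the match in Ddx58 covered bases 3 to 12 on the opposite strand and the match in Ifih1 bases 33 to 42 on the strand of the gene. A match is a description of the letters and not of a bound site. The windows shown were picked by their values, and whether a match bears on the level of a gene was not tested. Mb21d1, with no match, also had more at the highest than at the lowest scores, with log2 ratios of 0.52 (Fcmr+/+) and 0.36 (Fcmr-/-).
Ddx58 (chr4:40239776-40240075, minus strand): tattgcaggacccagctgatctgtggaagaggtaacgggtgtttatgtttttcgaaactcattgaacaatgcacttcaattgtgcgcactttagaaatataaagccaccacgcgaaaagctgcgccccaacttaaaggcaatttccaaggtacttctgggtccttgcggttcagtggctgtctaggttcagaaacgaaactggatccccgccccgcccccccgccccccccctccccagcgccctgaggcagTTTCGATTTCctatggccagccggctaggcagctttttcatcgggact
Ifih1 (chr2:62646206-62646505, minus strand): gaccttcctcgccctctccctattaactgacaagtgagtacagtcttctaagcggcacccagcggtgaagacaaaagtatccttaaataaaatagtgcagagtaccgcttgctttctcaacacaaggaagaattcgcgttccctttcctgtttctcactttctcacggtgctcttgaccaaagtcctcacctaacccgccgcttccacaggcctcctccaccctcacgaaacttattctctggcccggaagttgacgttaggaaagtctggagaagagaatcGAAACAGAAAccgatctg
Mavs (chr2:131233813-131234112, plus strand): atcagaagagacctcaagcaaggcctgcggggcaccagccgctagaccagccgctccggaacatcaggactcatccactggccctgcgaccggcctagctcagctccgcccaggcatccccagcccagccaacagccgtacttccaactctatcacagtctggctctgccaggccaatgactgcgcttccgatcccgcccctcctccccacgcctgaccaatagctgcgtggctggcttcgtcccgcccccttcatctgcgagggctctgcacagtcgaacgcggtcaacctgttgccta

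After the filters on cells, 6352 Fcmr+/+ and 7999 Fcmr-/- cells were kept, with 128408544 and 124630621 unique molecular identifiers (UMIs) and medians of 17973.5 and 12911 UMIs per cell. The libraries shared 73 barcodes. Fcmr itself had 7 UMIs in Fcmr+/+ and 6 in Fcmr-/- cells, too few to check the labels. All 9 macrophage markers were detected in both libraries, and Mertk and Fcgr1, the genes of the sort, stood at 62.8 and 250.4 CPM in Fcmr+/+ and 48.7 and 394 CPM in Fcmr-/- cells. All 6 T and NK cell markers were higher in Fcmr-/- cells, with a sum of 0.864 CPM against 14.5 CPM and Ncr1 at 0 and 1 UMIs. The sum of 7 monocyte markers was 392 CPM against 585 CPM, that of 7 markers of resident macrophages 2338 CPM against 1706 CPM, and that of 7 MHC class II genes 4919 CPM against 7126 CPM. Every marker listed was also higher in Fcmr-/- cells for conventional dendritic cells (sums of 8.36 and 13.5 CPM), neutrophils (31.5 and 48.4 CPM), melanoma (40.6 and 64.1 CPM) and endothelium (7.55 and 20.7 CPM). Some of these markers were nearly level or had few UMIs, such as Flt3 at 0.553 and 0.554 CPM and Ly6g at 0 and 3 UMIs. Of the 9 macrophage markers only 3 were higher, and their sums were 16452 and 14552 CPM. Among 7 plasmacytoid dendritic cell markers 4 were higher, with sums of 103 and 92.7 CPM. For B cells 1 of 5 was higher (12.4 and 10.4 CPM), and for fibroblasts 2 of 5 (0.872 and 0.786 CPM). The monocyte markers had 6 of 7 higher, while Hp went from 21.8 to 12.9 CPM. The part of these differences in the results below was not tested, apart from leaving out cells with transcripts of T and NK cells or of dendritic and B cells. The second cut dropped cells with at least 2 UMIs of the dendritic and B cell lists, 3532 Fcmr+/+ and 3239 Fcmr-/- cells. Tcf4 (98.7 and 88.5 CPM) and Cd79b (12.0 and 10.1 CPM) made up most UMIs of these lists. A cell with more UMIs met this cut more easily, so it did not single out dendritic or B cells. No cell type in the sort is known to lack the sensors, so the share of free RNA among their UMIs is not known.

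Among the DNA sensors, Zbp1 and Tmem173 were higher in Fcmr-/- TMPs by more than 1.5-fold, Ifi204 was higher by less, and Mb21d1 was nearly level. The level of a gene is given as CPM, its UMIs per 1000000 UMIs of the library, and each UMI stands for 1 transcript tagged near its 3′ end, so that no division by length is needed. Zbp1 (ENSMUSG00000027514, chr2:173206612-173218923, minus strand) had 6035 UMIs in the Fcmr+/+ library, or 47.0 CPM (interval 45.8 to 48.2). It had 15822 UMIs in the Fcmr-/- library, or 127 CPM (interval 125 to 129). With 1 CPM added on both sides, the log2 ratio of the libraries, Fcmr-/- over Fcmr+/+ throughout, was 1.41 (interval 1.37 to 1.46), and 46 of the 10714 genes tested had a higher ratio. Zbp1 was therefore the sensor with the widest gap between the libraries, and its counting intervals lay far apart. Fcmr-/- cells had fewer UMIs each. Shares of cells with a UMI were therefore compared after every cell had been thinned to 5000 UMIs, which left out no cell. The share with a Zbp1 UMI was 19.9% (interval 18.9 to 20.9) of thinned Fcmr+/+ cells and 39.0% (interval 37.9 to 40.1) of thinned Fcmr-/- cells, and 44.4% and 61.8% before thinning.

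Ifi204 (ENSMUSG00000073489, chr1:173747293-173766943, minus strand) was the most abundant sensor in both libraries. It stood at 168 CPM (interval 166 to 171) in Fcmr+/+ and 241 CPM (interval 238 to 243) in Fcmr-/- cells, with a log2 ratio of 0.51 (interval 0.49 to 0.54). A UMI of Ifi204 was found in 51.2% of thinned Fcmr+/+ and 61.0% of thinned Fcmr-/- cells, but in 83.7% and 84.1% before thinning, so the difference in share was seen only at equal depth. Closely related PYHIN genes lie beside Ifi204, and reads that fit several of them could be split or dropped by the counting, so its level is uncertain in that respect. It also lies on the chromosome of the targeted gene, 42.9 Mb from Fcmr. Tmem173 (ENSMUSG00000024349, chr18:35733679-35740554, minus strand) had 21.0 CPM (interval 20.2 to 21.8) in Fcmr+/+ and 33.8 CPM (interval 32.8 to 34.9) in Fcmr-/- cells. Its log2 ratio of 0.66 (interval 0.60 to 0.73) was exceeded by 211 genes, and the share of thinned cells with a UMI was 9.45% against 12.8%. Mb21d1 (ENSMUSG00000032344, chr9:78430526-78443237, minus strand), upstream of Tmem173 in the same route, had 13.2 CPM (interval 12.5 to 13.8) and 14.8 CPM (interval 14.2 to 15.5). Its log2 ratio was 0.16 (interval 0.07 to 0.25), and its share of thinned cells was 6.11% in Fcmr+/+ and 5.99% in Fcmr-/- cells, with overlapping intervals. On thinned counts the log2 ratio of Mb21d1 was -0.02, and it was 0.0019 without cells with transcripts of dendritic or B cells, so no direction is given for it.

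Among the RNA helicases, Dhx58 and Ddx58 were higher in Fcmr-/- TMPs by less than 1.5-fold, and Ifih1 and the shared adaptor Mavs differed by little. Dhx58 (ENSMUSG00000017830, chr11:100694884-100704271, minus strand) had 26.8 CPM (interval 25.9 to 27.7) in Fcmr+/+ and 39.6 CPM (interval 38.5 to 40.8) in Fcmr-/- cells. Its log2 ratio of 0.55 (interval 0.49 to 0.61) was just short of 1.5-fold, which is 0.58 on this scale, and its share of thinned cells went from 12.0% to 17.2%. Ddx58 (ENSMUSG00000040296, chr4:40203773-40239828, minus strand) had 20.5 CPM (interval 19.7 to 21.3) and 28.5 CPM (interval 27.6 to 29.5), a log2 ratio of 0.46 (interval 0.39 to 0.53), and was found in 10.1% and 12.5% of thinned cells. Ifih1 (ENSMUSG00000026896, chr2:62595798-62646255, minus strand) had 30.4 CPM (interval 29.4 to 31.3) and 34.9 CPM (interval 33.9 to 35.9), with a log2 ratio of 0.19 (interval 0.13 to 0.25). It was found in 12.8% of thinned Fcmr+/+ and 15.0% of thinned Fcmr-/- cells. Without cells with transcripts of dendritic or B cells its log2 ratio was 0.04, and under the weights described below it was negative, so no direction is given for it. Mavs (ENSMUSG00000037523, chr2:131234063-131248025, plus strand) had 12.1 CPM (interval 11.5 to 12.7) and 11.2 CPM (interval 10.6 to 11.8), with a log2 ratio of -0.10 (interval -0.20 to -0.01). Its shares of thinned cells were 5.699% and 5.05%, with overlapping intervals, and its log2 ratio was 0.10 once cells with transcripts of dendritic or B cells were left out, so no direction is given for it either.

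Of the endosomal receptors, Tlr7 was abundant and lower in Fcmr-/- TMPs, and Tlr9 was close to the limit of detection. Tlr7 (ENSMUSG00000044583, chrX:167304929-167330558, minus strand) had 65.0 CPM (interval 63.6 to 66.4) in Fcmr+/+ and 43.4 CPM (interval 42.3 to 44.6) in Fcmr-/- cells. Its log2 ratio was -0.57 (interval -0.62 to -0.52), which fell just short of 1.5-fold, and 10487 of the 10714 genes tested had a higher ratio. The share of thinned cells with a Tlr7 UMI was 25.4% (interval 24.3 to 26.5) in Fcmr+/+ and 18.1% (interval 17.2 to 18.9) in Fcmr-/- cells. Tlr7 lies on the X chromosome, and Xist, which female cells transcribe from their inactive X, had 923 CPM in Fcmr+/+ and 926 CPM in Fcmr-/- cells, with 0 UMIs of the Y-linked Ddx3y, Eif2s3y, Uty and Kdm5d in both. Tlr9 (ENSMUSG00000045322, chr9:106222598-106226883, plus strand) had 27 UMIs in Fcmr+/+ and 42 UMIs in Fcmr-/- cells, never more than 1 in a cell, or 0.210 CPM (interval 0.139 to 0.306) and 0.337 CPM (interval 0.243 to 0.456). It did not pass the filter, and a difference between the libraries was not detectable at this depth.

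**Figure D1:**
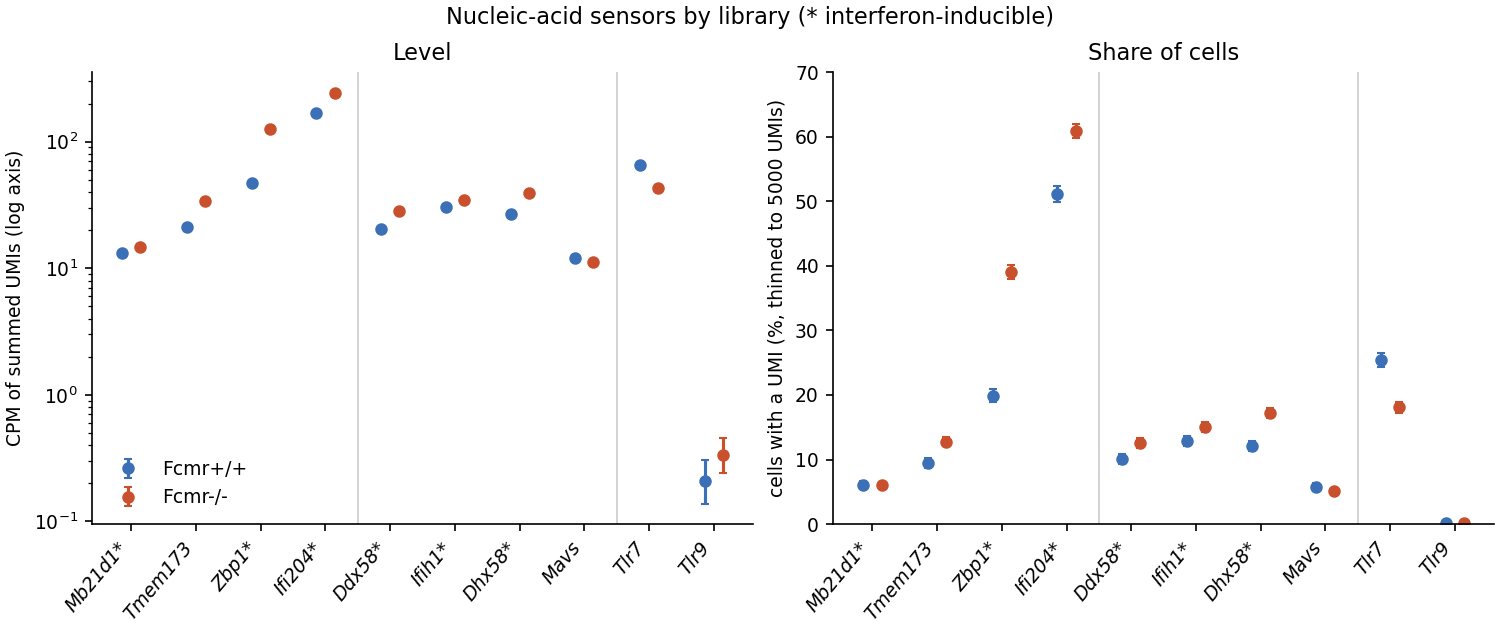
Level (left, CPM of the summed UMIs of a library on a log axis) and share of cells with a UMI after thinning (right, percent of cells) of the 10 sensors, grouped as DNA sensors, RNA helicases with Mavs, and endosomal receptors. Blue points are Fcmr+/+ and red points Fcmr-/- cells, 1 library each, bars are exact 95% counting intervals, and an asterisk marks an interferon-inducible gene. Zbp1 goes from 47.0 to 127 CPM and Tlr7 from 65.0 to 43.4 CPM.

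Read together, the 6 interferon-inducible sensors had log2 ratios from 0.16 to 1.41 with a median of 0.49. All 6 values were above 0, but only 5 were on thinned counts, where Mb21d1 was below 0, and 5 and 4 under the weights for type I and type II scores described below, where Ifih1, and under the type II weights also Mb21d1, turned. The 4 others had a median of 0.02, while the median over all 10714 genes tested was -0.00. The median of the others lay between Mavs (-0.10) and Tlr9 (0.14), which did not pass the filter. It hid Tmem173 at 0.66 and Tlr7 at -0.57, so it does not mean that the others were level. The sum of the 6 inducible sensors was 306 CPM in Fcmr+/+ and 486 CPM in Fcmr-/- cells, and that of the 4 others 98.3 and 88.8 CPM. Most of the gap between the inducible sums came from Zbp1 (47.0 and 127 CPM) and Ifi204 (168 and 241 CPM). At least 1.5-fold higher were 2 of the 9 sensors tested, Zbp1 and Tmem173, which belong to different groups, and 0 were at least 1.5-fold lower. Among all genes tested, 2.5% were higher and 1.96% lower by this measure, with no replicate behind any of these counts. Dhx58 and Tlr7 lay just outside the threshold and Tmem173 just inside it. On thinned counts Tmem173 had 0.46 and dropped out of this count, Dhx58 entered it at 0.62 and Tlr7 became at least 1.5-fold lower at -0.61, and as a mean of per-cell CPM Tmem173 had 0.53. By level, Fcmr+/+ cells had Ifi204, Tlr7, Zbp1, Ifih1 and Dhx58 in falling order, then Tmem173 and Ddx58 with overlapping intervals, Mb21d1 and Mavs with overlapping intervals, and Tlr9. In Fcmr-/- cells Zbp1 stood above Tlr7 and Dhx58 above Ifih1, and the intervals of Ifih1 and Tmem173 overlapped.

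The genes that act with the sensors gave a backdrop. Of a list of 89 partners, nucleases and target cytokines, 88 were in the matrices, 80 were tested, 9 were at least 1.5-fold higher and 2 at least 1.5-fold lower in Fcmr-/- cells, and the median log2 ratio was 0.01. Among all genes tested 2.5% were higher and 1.96% lower, and the counts of the RNA and endosomal arms lay near these shares. The list was chosen with earlier results of these data known, so counts above these shares are a description only. On the DNA arm 4 of 16 were higher, and all 4 were PYHIN genes beside Ifi204. These were Ifi205 (log2 ratio 1.19), Pyhin1 (0.80), Mndal (0.74) and Ifi203 (0.59). The annotated bounds of Mndal and Ifi203 overlap on the same strand, so the 4 may not be independent. Mnda had 0.46 and Aim2, the PYHIN protein that assembles an inflammasome on DNA, had -0.09. Ifi202b had 81 and 21 UMIs and was not tested. The kinase Tbk1 and the transcription factor Irf3, on which the cytosolic routes converge, had log2 ratios of -0.09 and 0.17. Ripk3 and Mlkl, the kinase and effector of necroptosis below Zbp1, had 0.26 and 0.51. On the RNA arm 0 of 18 passed the fold in either direction, with Ikbke closest at 0.58 and Trim25, the ubiquitin ligase that activates RIG-I, at 0.01.

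On the endosomal arm 1 of 27 was higher, Irf7, the transcription factor that drives interferon genes below TLR7 and TLR9, which went from 69.7 to 140 CPM with a log2 ratio of 0.99 (interval 0.96 to 1.03). Unc93b1, the chaperone that brings these receptors to endosomes, had 0.17, Myd88, their adaptor, 0.02, and Slc15a3, a transporter of the endolysosome, 0.56. Rnaset2a, an RNase that cuts RNA in lysosomes, had -0.42 and its near-identical copy Rnaset2b -0.31, and both are uncertain because reads may be split between them. Among nucleases and brakes 2 of 14 were higher, namely Dnase1l3, a secreted DNase that had 0.280 and 3.92 CPM with a log2 ratio of 1.94, and Samhd1, which hydrolyses dNTPs, at 0.75. Dnase1l3 passed the filter on level only through the Fcmr-/- library, so its fold was bound to be wide. It was the only partner gene tested with less than 1 CPM in a library, and without it 1 of 13 in this arm and 8 of 79 partners were higher. Enpp1, which degrades cGAMP outside the cell, had -0.44, and the kinase Ulk1 -0.48. Trex1, the main cytosolic DNase, was listed at 0 UMIs in both libraries, so no value is given for it. Of the target cytokines 2 of 5 were higher, Cxcl10 from 152 to 275 CPM and Ccl5 from 33.2 to 60.9 CPM, both with 0.86, and 2 were lower. Those were Ifnb1, the interferon that these sensors induce most directly, from 10.3 to 3.97 CPM with a log2 ratio of -1.18 (interval -1.31 to -1.06), and Tnf from 259 to 134 CPM with -0.94. Il6 had -0.53.

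**Figure D2:**
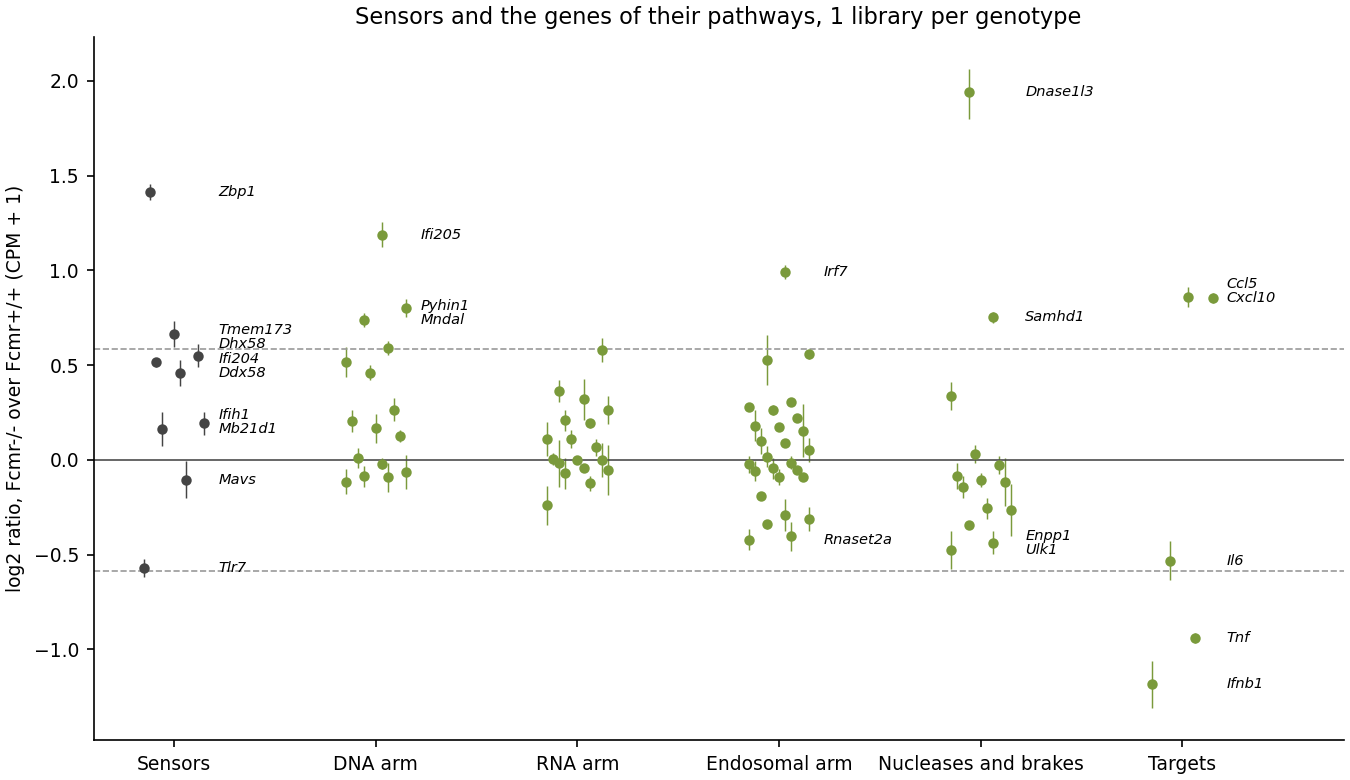
Log2 ratio of Fcmr-/- to Fcmr+/+ cells (y axis, after adding 1 CPM) for the 9 sensors tested (grey) and the 80 partner genes tested (green), by arm of the pathways. Bars are 95% counting intervals and dashed lines mark 1.5-fold. The named points are the sensors, the 6 highest and 6 lowest partners, Samhd1 and Mndal, and the RNA arm lies within the dashed lines throughout.

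To see how the sensors followed the interferon state of a cell, TMPs were scored by their UMIs of 34 type I interferon genes, none of them a sensor or a partner gene, after thinning to 5000 UMIs. Cells of both libraries were then divided at the quartiles, 11, 20 and 35 UMIs, into bins 1 to 4, which are ranges of a score and not cell types, and 158 to 447 cells lay exactly on a limit. Bin 4, with the highest scores, held 17.1% of Fcmr+/+ and 29.95% of Fcmr-/- cells. In Fcmr+/+ cells Zbp1 had 14.9, 32.2, 59.7 and 139 CPM from bin 1 to bin 4, and in Fcmr-/- cells 27.3, 66.9, 129 and 251 CPM. Ifi204 had 105, 135, 185 and 372 CPM in Fcmr+/+ and 107, 156, 226 and 432 CPM in Fcmr-/- cells. The levels of both genes were higher in each bin than in the one before, in both libraries. Bin 4 against bin 1 gave Zbp1 a log2 ratio of 3.14 in Fcmr+/+ and 3.16 in Fcmr-/- cells, the widest of the sensors. Ddx58 had 2.05 and 2.00, Ifih1 1.92 and 2.01, and Dhx58 1.34 and 1.77. Mb21d1, at 11.7 CPM in bin 1 and 17.3 CPM in bin 4 of Fcmr+/+ cells, had only 0.52 and 0.36.

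Of the others, Tmem173 was also higher in bin 4 than in bin 1, by 0.69 in Fcmr+/+ and 1.05 in Fcmr-/- cells on the log2 scale. Mavs stayed between 10.0 and 13.6 CPM in the 8 sets of cells, and its log2 ratios of 0.04 and -0.20 had intervals that included 0. Tlr7 had 73.0 CPM in bin 1 and 58.4 CPM in bin 4 of Fcmr+/+ cells, or -0.32 (interval -0.42 to -0.22) on the log2 scale, but 44.8 and 43.9 CPM in Fcmr-/- cells. The median over the 6 inducible sensors was 1.86 in Fcmr+/+ and 2.00 in Fcmr-/- cells, with 5 of 6 at least 1.5-fold higher in each. Over the 4 others it was -0.02 and 0.01, with 1 of 4. These 4 include Tlr9, which did not pass the filter, and both of their medians rest partly on its value. Of the 10680 genes tested that are not in the score, 5.76% were at least 1.5-fold higher and 5.6% lower in bin 4 of Fcmr+/+ cells. In bin 4 of Fcmr-/- cells these shares were 5.91% and 6.77%. Since type I interferon genes formed the score and the inducible group was picked for its induction by interferon, the order of the groups is a description.

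Within a bin the inducible sensors were compared between cells of more similar scores. The median score in bins 1 to 4 was 7, 15, 27 and 49 UMIs in Fcmr+/+ and 8, 16, 27 and 54 UMIs in Fcmr-/- cells, so that in bin 4, which has no upper limit, Fcmr-/- cells still scored higher. Their median log2 ratio, Fcmr-/- over Fcmr+/+, was 0.04, 0.20, 0.24 and 0.16 from bin 1 to bin 4, against 0.49 over all cells. Zbp1 had 0.83, 1.03, 1.10 and 0.85, with every interval above 0. Dhx58 had -0.04 in bin 1, 0.48 in bin 3 and 0.39 in bin 4. Ifih1 was below 0 in all bins, between -0.23 and -0.08, but its intervals in bins 3 and 4 included 0. Tmem173 had 0.30, 0.44, 0.61 and 0.66, with a wider gap at higher scores. Tlr7 was lower in Fcmr-/- cells in every bin, with log2 ratios of -0.69, -0.51, -0.50 and -0.40 and every interval below 0. When the Fcmr-/- cells were weighted to the type I bins of the Fcmr+/+ cells, an alternative chosen after seeing the data, Zbp1 had a log2 ratio of 0.96, Tmem173 of 0.49 and Tlr7 of -0.56. Weighted to the type II bins described next, they had 0.67, 0.24 and -0.61. Ifih1 turned to -0.14 and -0.22 under the type I and type II weights.

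**Figure D3:**
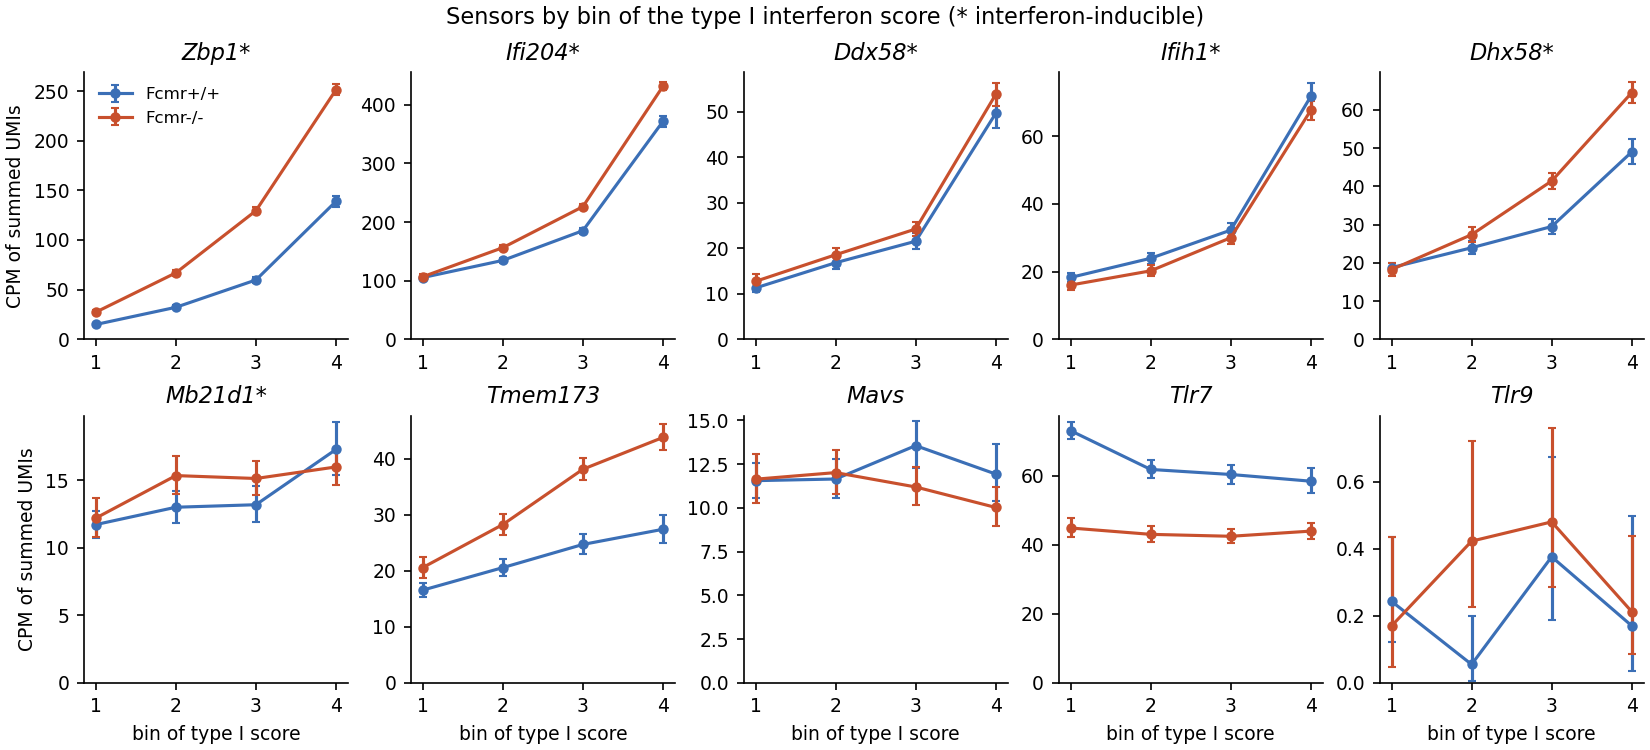
CPM of each sensor (y axis, linear, from 0) in bins 1 to 4 of the type I interferon score (x axis), the 6 inducible sensors first, with Fcmr+/+ in blue and Fcmr-/- in red. Bars are 95% counting intervals. Zbp1 climbs to 139 CPM in Fcmr+/+ and 251 CPM in Fcmr-/- cells in bin 4, and Tlr7 lies lower in Fcmr-/- cells throughout.

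A second score, from 26 genes induced mainly by interferon gamma, divided the cells at 1, 2 and 4 UMIs, so that many cells lay on a limit. Bin 4 against bin 1 of this score gave the inducible sensors a median log2 ratio of 1.55 in Fcmr+/+ and 1.16 in Fcmr-/- cells, with 6 of 6 and 5 of 6 at least 1.5-fold higher. Of the 10691 genes tested that are not in this score, 4.79% were higher and 2.36% lower in Fcmr+/+ cells by this contrast. In Fcmr-/- cells these shares were 4.4% and 2.54%. Tmem173 had 0.55 in Fcmr+/+ and 1.19 in Fcmr-/- cells. Within bin 4, where the median score was 6 UMIs in Fcmr+/+ and 9 UMIs in Fcmr-/- cells, the inducible median of Fcmr-/- against Fcmr+/+ cells was -0.30, since Ifih1 (-0.58), Ddx58 (-0.41), Mb21d1 (-0.35) and Ifi204 (-0.25) were lower in Fcmr-/- cells there, whereas Zbp1 (0.39), Dhx58 (0.25) and Tmem173 (0.76) were higher.

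Both scores were then read together, with cells called high or low by the median of each. The median was 20 UMIs for the type I score, with 305 cells exactly on it. For the type II score it was 2 UMIs, with 2365 cells on it, so the type II classes are the coarser ones. Low in both were 51.8% of Fcmr+/+ and 28.4% of Fcmr-/- cells, and high in both 14.5% and 38.7%. Among cells low in both, Zbp1 had 21.1 CPM in Fcmr+/+ and 31.1 CPM in Fcmr-/- cells, Ifi204 115 and 118 CPM, and Ddx58 13.1 and 13.6 CPM. Against these, Fcmr+/+ cells high in the type I score only had Zbp1 higher by a log2 ratio of 1.53, those high in the type II score only by 0.52, and those high in both by 2.66. For Zbp1 in Fcmr-/- cells the same steps were 1.71, 1.31 and 2.77. Tmem173 in Fcmr-/- cells had 0.62 with type I only, 0.83 with type II only and 1.22 with both, and the first 2 of these had overlapping intervals. Zbp1, Ifi204, Ddx58, Ifih1 and Dhx58 all had a wider ratio with type I only than with type II only, in both libraries. Because the type II classes rest on few UMIs per cell, these widths do not compare the 2 interferons on equal terms. Mb21d1, the sixth inducible sensor, had -0.07 with type I only and 0.14 with type II only in Fcmr+/+ cells, and 0.10 and 0.38 in Fcmr-/- cells, with overlapping intervals in each library. Ifih1 in Fcmr+/+ cells had 0.79 with type I only, 0.04 with type II only and 1.64 with both.

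Clustering of all cells gave 11 groups, which are called by number and by the genes that led them, and because they were built from these same cells their levels are descriptions. Levels are those of both libraries summed unless a library is named, and the libraries hold different shares of each cluster. Cluster 7, led by Rsad2, Ifit1, Ifit3, Ifit2 and Cmpk2, had the highest level of 5 inducible sensors: Ifi204 at 687 CPM, Zbp1 at 290 CPM, Ifih1 at 122 CPM, Ddx58 at 91.1 CPM and Dhx58 at 84.3 CPM. The next cluster reached 281 CPM for Ifi204 and 207 CPM for Zbp1 (both cluster 3, led by Ly6c2 and Ly6a), and 39.3 CPM for Ifih1 (cluster 1, led by Ccl17 and Ear2). In Fcmr+/+ cells alone Zbp1 had 235 CPM in cluster 7 and 222 CPM in cluster 3, with overlapping intervals. For Mb21d1 the intervals of clusters 7 and 5 overlapped in Fcmr+/+ cells, so no order is given there, and lay apart in Fcmr-/- cells. Fcmr+/+ cells had 32.6 CPM (interval 26.6 to 39.6) in cluster 7 and an interval of 22.9 to 27.2 CPM in cluster 5, led by the cell cycle genes Ube2c and Top2a, whereas Fcmr-/- cells had 18.9 CPM (interval 16.2 to 22.0) and 29.2 CPM (interval 26.7 to 31.7). Tmem173 in Fcmr-/- cells was highest in cluster 9, led by Iigp1 and Cxcl9, at 54.0 CPM, with 22.2 CPM in cluster 7. In Fcmr+/+ cells it had 37.7 CPM (interval 27.4 to 50.6) in cluster 3 and 33.8 CPM (interval 23.9 to 46.3) in cluster 9, with overlapping intervals. Tlr7 was highest in cluster 10, led by Acp5 and Apoe, at 80.8 CPM, and in cluster 2, led by Tfrc and Gas6, at 79.1 CPM, with overlapping intervals. It was lowest in cluster 8, led by Hbb-bs and the heat shock gene Hspa1a, at 27.4 CPM, which also had the lowest value of Tmem173, Ddx58 and Dhx58, but for all 4 genes the interval overlapped that of the next lowest cluster. Mavs spanned 6.70 to 14.8 CPM, a 2.21-fold range and narrower than that of any other sensor tested. Zbp1 spanned 19.1 CPM in cluster 11, led by Adm and Bhlhe41, to 290 CPM, a 15.2-fold range and the widest.

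The libraries contributed unequally to the clusters, with 65 Fcmr+/+ and 1484 Fcmr-/- cells in cluster 3, 255 and 850 in cluster 7, and 47 and 932 in cluster 9, and ratios were taken in the 10 clusters with at least 50 cells of each. Tlr7 was lower in Fcmr-/- cells in 10 of 10, from -0.69 in cluster 4, led by Ppbp and Spp1, to -0.13 in cluster 3, with 7 intervals below 0. Zbp1 was higher in 9 of 10, with 7 intervals above 0, a median of 0.38 and -0.10 in cluster 3. Tmem173 was higher in 9 of 10, but only clusters 1, 5 and 10 had an interval above 0, with log2 ratios of 0.62, 0.84 and 0.72. Dhx58 and Mb21d1 were each higher in 6 of 10, Ifi204 and Ddx58 in 4 and Ifih1 in 3. The median over the inducible sensors was above 0 in 5 of 10 clusters. In cluster 7 itself Ifi204 had 742 CPM in Fcmr+/+ and 668 CPM in Fcmr-/- cells, Ifih1 147 and 114 CPM, and Mb21d1 32.6 and 18.9 CPM, while Zbp1 had 235 and 309 CPM.

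Cluster 5, the cycling cells, was where all 6 inducible sensors were higher in Fcmr-/- cells. Zbp1 had 26.5 CPM in Fcmr+/+ and 96.1 CPM in Fcmr-/- cells, or 1.82 (interval 1.69 to 1.96) on the log2 scale. Ifi204 had 109 and 175 CPM, with 0.67, and Tmem173 23.0 and 42.1 CPM, with 0.84. In the same cells the type I genes summed to 2905 and 4251 CPM, the type II genes to 328 and 1243 CPM, and the T and NK cell markers to 0.0461 and 61.9 CPM. Leaving out cells of this cluster with a UMI of those T and NK cell markers, an alternative chosen after seeing the data, kept 719 Fcmr+/+ and 706 Fcmr-/- cells, with a log2 ratio of 1.83 for Zbp1, 0.69 for Ifi204 and 0.82 for Tmem173.

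**Figure D4:**
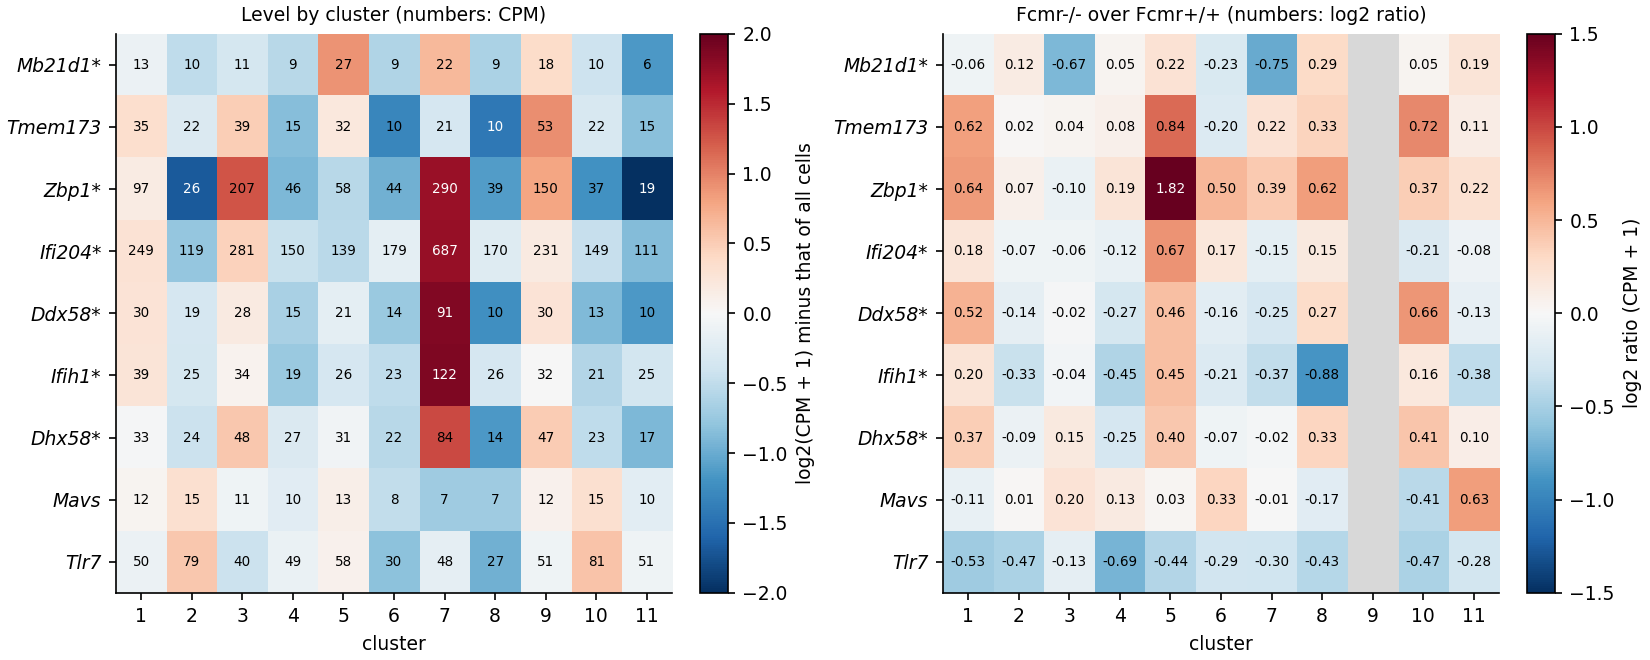
Sensors (rows, without Tlr9) in the 11 clusters (columns). Left, colors give log2(CPM + 1) minus its value over all cells, and numbers the CPM. Right, colors and numbers give log2 ratios, Fcmr-/- over Fcmr+/+, with cluster 9 in grey because it held 47 Fcmr+/+ cells. Cluster 7 stands out on the left for 5 inducible sensors, and the Tlr7 row on the right is below 0 throughout.

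Within cells, inducible sensors were found together more often than their separate shares would give. For each pair, the share of thinned cells with a UMI of both genes was divided by the product of the shares, so that 1 means no association, and cells of 1 library share their source. Of the 15 pairs of inducible sensors, 13 in Fcmr+/+ and 12 in Fcmr-/- cells had an interval above 1, with median ratios of 1.31 and 1.33. Pairs of other genes were not taken, so no share over all genes stands beside these counts. Cells of all clusters were pooled, and the part of differences between clusters in the ratios was not tested. The intervals hold the product of the shares fixed and cover the count of cells with both genes only. The pairs whose interval included 1 all held Mb21d1, with Ifi204 and Dhx58 in both libraries and with Zbp1 in Fcmr-/- cells. Ddx58 with Dhx58 was highest in Fcmr+/+ cells, at 1.71 (interval 1.43 to 2.03, 132 cells with both), and Ddx58 with Ifih1 in Fcmr-/- cells, at 1.77 (interval 1.56 to 1.99, 266 cells). Zbp1 with Ifi204, the most abundant pair, had 1.31 in Fcmr+/+ and 1.197 in Fcmr-/- cells. The ratio cannot exceed 1 over the larger share, so it does not rank pairs of unlike abundance. By Pearson's r of log-normalized values Zbp1 with Ifi204 was the highest pair, at 0.40 in Fcmr+/+ and 0.46 in Fcmr-/- cells. Ddx58 with Dhx58 had 0.19 in Fcmr+/+ and Ddx58 with Ifih1 0.28 in Fcmr-/- cells. Of the 24 pairs of an inducible sensor with another one, 0 in Fcmr+/+ and 2 in Fcmr-/- cells had an interval above 1. Both of those 2 included Tmem173, with Mb21d1 at 1.31 (interval 1.04 to 1.62) and with Zbp1 at 1.21 (interval 1.11 to 1.32). Mb21d1 with Tmem173, the sensor and adaptor of 1 route, had 1.04 (interval 0.73 to 1.42) in Fcmr+/+ cells, where 38 cells held both. Ddx58 and Ifih1 with their adaptor Mavs had 1.10 and 1.05 in Fcmr+/+ and 0.89 for each in Fcmr-/- cells, with intervals that included 1. In sparse counts such as these, UMIs of 2 low-level genes are rarely caught in the same cell. Zbp1 and Ifi204 were found together in 13.4% of thinned Fcmr+/+ and 28.5% of thinned Fcmr-/- cells.

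Counted per thinned cell, the mean number of the 10 sensors with a UMI was 1.53 in Fcmr+/+ and 1.87 in Fcmr-/- cells. Before thinning it was 3.56 and 3.54. At least 2 inducible sensors were found in 30.3% (interval 29.2 to 31.5) of thinned Fcmr+/+ and 45.4% (interval 44.4 to 46.5) of thinned Fcmr-/- cells, and none in 31.1% and 20.6%. At least 1 of the 4 others was found in 36.5% of thinned Fcmr+/+ and 32.1% of thinned Fcmr-/- cells, and at least 2 in 3.97% and 3.75%, with overlapping intervals. The first difference had the direction of Tlr7, found in 25.4% and 18.1%, and not that of Tmem173, found in 9.45% and 12.8%. No thinned cell held a UMI of all 4 of these.

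**Figure D5:**
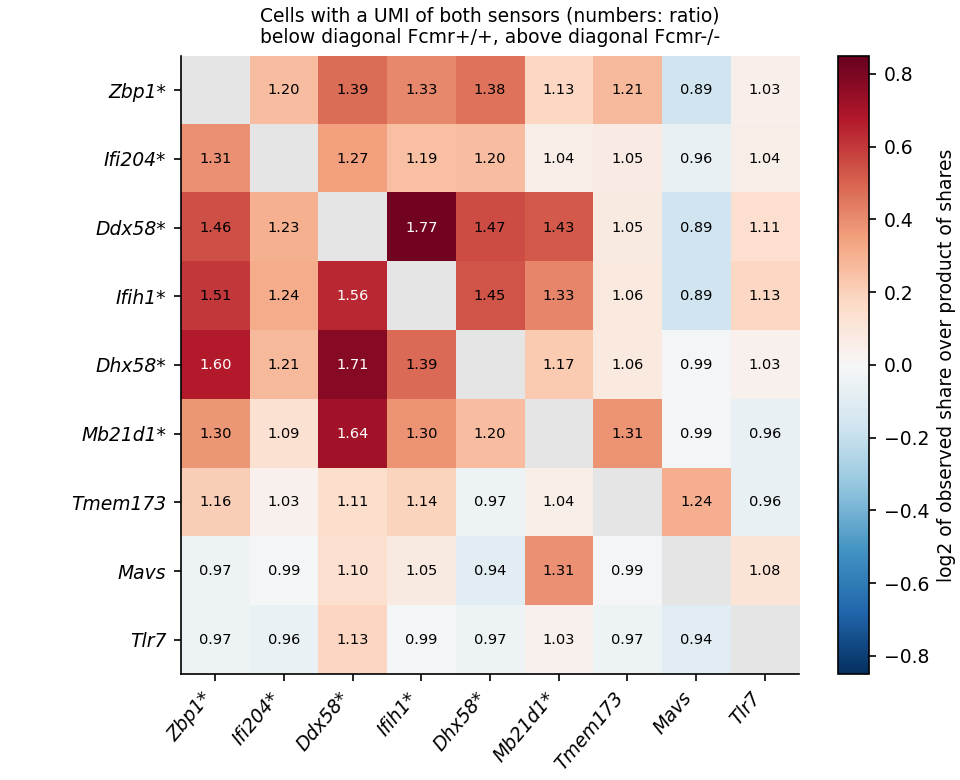
Share of thinned cells with a UMI of both sensors of a pair over the product of the separate shares (numbers, colors on a log2 scale), with Fcmr+/+ cells below the diagonal, Fcmr-/- cells above it, and Tlr9 left out. The block of the 6 inducible sensors at the upper left holds ratios from 1.04 to 1.77, while pairs with Tlr7 lie between 0.94 and 1.13 and pairs with Mavs between 0.89 and 1.31, all with intervals that include 1. Within the block, only pairs with Mb21d1 have such intervals.

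Across the 21 sums of cells of a cluster and library with at least 50 cells, the genes whose log2(CPM + 1) was most like each sensor were found among 8537 genes. These correlations describe clusters and libraries that share cells and depth, and carry no p. For Ifi204 the likest were Xaf1 (Pearson's r 0.98), its family member Pyhin1 (0.98) and Slfn8 (0.97). For Zbp1 they were Phf11b (0.96), Slfn1 (0.95) and Rtp4 (0.95). Ddx58 was most like Trim30a, Parp14 and Tor3a, Ifih1 most like Cmpk2, Ifit3 and Ifit3b, and Dhx58 most like Parp12, Trim30a and Ifi47. Of these 15 genes counted with repeats, 10 are in the type I list. Ifi47 is the only one in the type II list. For the others no gene of either list was among the likest. Those of Tmem173 were the protease Ctsc (0.97), Ly86 (0.94) and Pld4, a nuclease of the endosome (0.92), and those of Tlr7 were Chmp1a (0.94), C330006A16Rik and Nfkbil1. Those of Mavs were Plscr3, Nudt3 and Nacc2, and those of Mb21d1, though it is inducible, were Dck (0.90), Sart3 and Ccdc25. Those of Tlr9 reached 0.69 at most, on few UMIs. Among the sensors, Ddx58 and Dhx58 were most alike, at 0.96, and Ifi204 and Mavs least, at -0.49.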

How the data were processed

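The data were 2 droplet-based libraries, 1 per genotype. What the authors deposited were whole-number UMI counts for each gene in each cell. Per the labels, Cell Ranger and the mouse build GRCm38 (mm10) were used to make them, and Seurat 2.1.0 is also named. Nothing in the files shows a further normalization. The members and gene lists were chosen with earlier results of these data known. Cells with 200 to 7000 genes and at most 30% mitochondrial UMIs were kept, and genes with a UMI in at least 3 cells. UMIs were summed per library, cluster or score range and given as CPM, with 1 CPM added before log2 ratios. A gene was tested at a mean of at least 1 CPM, and 1.5-fold was the threshold. Depth was 128408544 and 124630621 UMIs, and exact Poisson, conditional binomial and Clopper-Pearson intervals at 95% were computed with scipy 1.17.1 in Python 3.11.15. They cover counting error only. By these intervals a count of 0 allows somewhat more than 3 counts.

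Clusters were made with Seurat 5.3.0 in R 4.3.3 from log-normalized values (scale 10000), 1339 variable genes, 10 principal components, 30 neighbors and a Louvain resolution of 0.8. Thinning to 5000 UMIs drew without replacement. Scrublet, as in scanpy 1.11.5, called 0 doublets in each library and so had not worked, and removal of up to 5% of cells with the highest scores was tried in its place. The text names all 10 members, the 6 highest and 6 lowest partner genes by log2 ratio, partners whose role it describes, PYHIN genes beside Ifi204, and the 3 genes most like each member. Calculations were tested on simulated data. Gene positions are those of GENCODE M21 on GRCm38, and start windows are from RefSeq GRCm38.p6.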

Additional observations from a re-analysis of the deposited data

Results flagged for a closer look

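For 5 inducible sensors the difference between the libraries pointed in opposite directions in different clusters, with a counting interval above 0 in at least 1 cluster and below 0 in at least 1 other. Whether the clusters differ was not tested, since there is 1 library per genotype. The share of all genes that meet this rule was not computed, so the count is not a trait of the sensors. Values are log2 ratios of Fcmr-/- to Fcmr+/+ cells. Ifi204 had 0.67 in cluster 5, the cycling cells, and -0.21 in cluster 10, with 4 clusters above and 3 below 0. Ifih1 had 0.45 in cluster 5 and -0.88 in cluster 8, led by hemoglobin and heat shock genes, with 2 clusters above and 4 below 0. Mb21d1 had 0.22 in cluster 5 and -0.75 in cluster 7, led by interferon-stimulated genes. Ddx58 had 0.66 in cluster 10 and -0.25 in cluster 7. Dhx58 had 0.41 in cluster 10 and -0.25 in cluster 4. Zbp1, Tmem173, Mavs and Tlr7 had no such pair of clusters.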

How the results depend on the processing

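Beside the values in the report, 17 alternatives were run for the sensors between the libraries and 4 each for the bins and the clusters. Zbp1, Tmem173, Ifi204, Ddx58, Dhx58 and Tlr7 kept their direction in all 17, with ranges of 0.67 to 1.43, 0.24 to 0.69, 0.11 to 0.52, 0.05 to 0.52, 0.14 to 0.62 and -0.61 to -0.56. Some of the 17 could not change a direction. Moving Mb21d1 or Tmem173 between the groups, or changing the filter on level, left the ratio of each sensor as it was. Where a value moved, the cause was not tested. A pseudocount of 0.1 CPM gave the other sensors a median of 0.19, with Tlr9 at 0.49, and 339 genes lower by 1.5-fold, against 210. With genes of at least 5 CPM, 124 were lower. Means of per-cell CPM left 1 sensor at least 1.5-fold higher. Thinning gave an inducible median of 0.43, 1 sensor lower and Mb21d1 at -0.024. Without cells with at least 2 UMIs of the dendritic and B cell lists, 2820 Fcmr+/+ and 4760 Fcmr-/- cells were left. In these, 1 sensor was lower, Mavs had 0.097, Ifih1 0.043 and Mb21d1 0.0019. Most UMIs of those lists were Tcf4, so this cut did not single out dendritic or B cells. With Mb21d1 among the others, their median was 0.14. With Tmem173 among the inducible sensors, the inducible median was 0.51 and that of the others -0.10. For bin 4 against bin 1, the inducible median was 1.82 in Fcmr-/- cells with every other gene of the score and 1.68 in Fcmr+/+ cells with bins set within each library, where the genotypes differed by 0.55 in bin 4, against 0.16. Tlr7 was lower in 90% to 100% and Zbp1 higher in 90% to 100% of the clusters compared, and the inducible median was above 0 in 60% to 71.4%, against 50%.

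Weighting Fcmr-/- cells to the type I bins of Fcmr+/+ cells, chosen after seeing the data, gave an inducible median of 0.17, 1 sensor higher, 175 genes higher, against 268, and Ifih1 at -0.14. With the type II bins these were 0.080, 1, 113 and -0.22, with 1 sensor lower and Mb21d1 at -0.00022. Of genes past the fold, 56.1% were higher in the report, and 46.2% and 37.9% under these weights. No paired analysis was possible because there was 1 library per genotype. Depth limits Tlr9, with 27 and 42 UMIs, and pairs of rare sensors.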
